A study of Mus musculus with 6 samples.

Results

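The effect of added Acsl4 on open chromatin was examined in pancreatic islets of mice that lack Rictor in beta cells (βRicKO). Islets carrying an Acsl4 adenovirus (Ad-Acsl4) were set against islets of the same genotype carrying a GFP adenovirus (Ad-GFP). The peak lists of both libraries per group were merged wherever peaks overlapped by 1 bp or more, which gave 10866 regions. Of these, 1486 had 1 of the patterns described here. They had a peak in both lists of 1 group and no peak in either list of the second, or in both Ad-GFP libraries together with 1 or both Ad-Acsl4 libraries. The same patterns were found for 224 of 1586 regions when every list was cut to its best peaks at the length of the shortest list, referred to as equal length.

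The assay was ATAC-seq, which uses the transposase Tn5 to cut accessible DNA, and a peak marks a place cut more often than its surroundings. All mice were 16 weeks old. Islets were infected for 48 h outside the animal, and 50 islets were taken per library. The groups are named knockout-GFP (βRicKO + Ad-GFP, libraries 1 and 2) and knockout-Acsl4 (βRicKO + Ad-Acsl4, libraries 1 and 2, which the titles also call KA1 and KA3). A control-GFP group (Con + Ad-GFP, wildtype, 2 libraries) completes the 6 libraries of the study. It served only as an outside readout, since no list of it entered the choice of regions. The promoter that drives the Rictor deletion, and whether replicate libraries stem from different animals, are not given in the sources used here. Differences between groups therefore measure the spread between these libraries, which may be technical.

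Rictor is the defining subunit of mTORC2, a kinase complex that phosphorylates AKT, which in turn keeps FOXO transcription factors out of the nucleus. Acsl4 couples long-chain polyunsaturated fatty acids to coenzyme A, the step that readies them for membrane phospholipids. In chromatin assays the promoters of widely expressed genes are open in most cell types, while enhancers and promoters of identity genes differ between them. Islets hold beta cells beside other endocrine, vascular and immune cells. Fewer cells with an open site and less opening in each cell cannot be told apart in whole islets.

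The promoters printed here are examples from the region classes. Not every region overlaps a promoter, so the sequences do not stand for a whole class. They are the first 2 promoters of each class in the order used to name regions, and run from 250 bases before to 50 after the start site of the gene. Sequences are from RefSeq (GRCm38.p6), 5′ to 3′ on the strand of the gene. Capitals mark matches, on either strand, to any of the 12 motifs spelled out with the motif counts. The first pair belongs to regions of both knockout-GFP lists only, the Krüppel-type zinc finger gene Zfp78 and Ifrd1, a transcriptional co-regulator. The Zfp78 region covers 50 bases of the sequence shown and the Ifrd1 region all 300.
Zfp78 (chr7:6363058-6363357, + strand): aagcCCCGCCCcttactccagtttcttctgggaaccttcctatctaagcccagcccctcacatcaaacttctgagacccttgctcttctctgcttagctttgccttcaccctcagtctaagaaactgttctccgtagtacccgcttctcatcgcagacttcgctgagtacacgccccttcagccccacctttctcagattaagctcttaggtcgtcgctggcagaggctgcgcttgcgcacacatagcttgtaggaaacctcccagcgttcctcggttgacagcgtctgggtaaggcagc
Ifrd1 (chr12:40223140-40223439, - strand): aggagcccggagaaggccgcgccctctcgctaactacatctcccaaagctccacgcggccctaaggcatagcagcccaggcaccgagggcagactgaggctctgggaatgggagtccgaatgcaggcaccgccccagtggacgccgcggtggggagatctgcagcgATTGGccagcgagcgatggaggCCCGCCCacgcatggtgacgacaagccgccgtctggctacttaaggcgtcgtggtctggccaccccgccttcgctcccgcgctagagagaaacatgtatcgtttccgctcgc

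The next pair was also called in knockout-Acsl4 1. Calr encodes calreticulin, a calcium-binding chaperone of the endoplasmic reticulum (ER), and Gtdc1 a glycosyltransferase-like protein. The Calr promoter has matches to 5 motifs, and its E-box shares bases with an antioxidant response element.
Calr (chr8:84846882-84847181, - strand): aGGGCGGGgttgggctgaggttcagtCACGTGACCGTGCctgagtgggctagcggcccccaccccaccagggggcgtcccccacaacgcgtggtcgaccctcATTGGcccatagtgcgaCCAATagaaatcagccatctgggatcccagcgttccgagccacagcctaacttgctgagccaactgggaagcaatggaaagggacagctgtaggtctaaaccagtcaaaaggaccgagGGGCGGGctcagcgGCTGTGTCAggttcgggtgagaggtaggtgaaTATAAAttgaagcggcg
Gtdc1 (chr2:44927187-44927486, - strand): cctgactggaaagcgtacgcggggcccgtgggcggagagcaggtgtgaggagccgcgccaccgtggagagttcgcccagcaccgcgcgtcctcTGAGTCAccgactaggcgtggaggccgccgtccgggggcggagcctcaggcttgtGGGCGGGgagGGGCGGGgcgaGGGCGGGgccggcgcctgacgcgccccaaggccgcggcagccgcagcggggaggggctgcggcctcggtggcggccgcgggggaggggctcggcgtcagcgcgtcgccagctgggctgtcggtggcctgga

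For regions shared with knockout-Acsl4 2, the first 2 with a promoter entry were at Rab8a, a GTPase of vesicle traffic to the plasma membrane, and Isoc2b, an isochorismatase-domain gene. Both have an ETS match and at least 1 CCAAT box.
Rab8a (chr8:72160950-72161249, + strand): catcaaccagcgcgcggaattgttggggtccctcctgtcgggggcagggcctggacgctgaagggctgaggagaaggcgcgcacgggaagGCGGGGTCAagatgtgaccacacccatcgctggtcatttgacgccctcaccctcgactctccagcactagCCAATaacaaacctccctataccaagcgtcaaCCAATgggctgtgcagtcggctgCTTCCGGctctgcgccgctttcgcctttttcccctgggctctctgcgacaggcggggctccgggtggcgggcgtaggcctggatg
Isoc2b (chr7:4866130-4866429, - strand): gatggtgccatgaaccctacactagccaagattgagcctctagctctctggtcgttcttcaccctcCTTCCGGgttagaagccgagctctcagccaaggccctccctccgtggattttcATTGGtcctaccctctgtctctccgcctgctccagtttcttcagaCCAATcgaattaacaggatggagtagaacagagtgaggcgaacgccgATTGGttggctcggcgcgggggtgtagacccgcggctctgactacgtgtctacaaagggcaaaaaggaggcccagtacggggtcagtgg

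Among regions of all 4 lists, those at the end of a gene were led by Pwwp2a, a reader of nucleosomes with the histone variant H2A.Z, and Wipi1, a phosphoinositide-binding autophagy protein. Pwwp2a has 4 CCAAT boxes and 3 GC boxes, and Wipi1 has 6 GC boxes.
Pwwp2a (chr11:43681748-43682047, + strand): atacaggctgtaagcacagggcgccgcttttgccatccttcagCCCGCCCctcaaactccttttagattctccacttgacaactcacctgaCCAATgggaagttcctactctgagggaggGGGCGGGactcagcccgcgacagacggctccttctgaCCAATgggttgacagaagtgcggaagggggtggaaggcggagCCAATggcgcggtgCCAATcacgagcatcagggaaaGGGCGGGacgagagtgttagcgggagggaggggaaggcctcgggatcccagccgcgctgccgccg
Wipi1 (chr11:109611340-109611639, - strand): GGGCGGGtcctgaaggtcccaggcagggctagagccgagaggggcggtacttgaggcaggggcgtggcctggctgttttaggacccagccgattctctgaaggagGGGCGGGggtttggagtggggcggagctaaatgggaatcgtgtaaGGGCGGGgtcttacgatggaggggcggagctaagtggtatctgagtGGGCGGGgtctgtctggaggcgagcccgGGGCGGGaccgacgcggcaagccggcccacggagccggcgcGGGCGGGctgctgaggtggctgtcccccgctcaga

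The 4 lists differed in length and in where their peaks lay, and the libraries of the Acsl4 group differed most from each other. Knockout-GFP 1 held 2206 peaks and knockout-GFP 2 held 4257. Knockout-Acsl4 1 was the shortest list, covering 91.3 kb in all, and knockout-Acsl4 2 the longest, with 5874 peaks. A gene end here means either end of a protein-coding gene, and a peak lies at it when any base is within 1000 bp. The share of peaks at gene ends was 67.2% (95% exact interval 65.2 to 69.2) in knockout-GFP 1 and 75.5% (74.2 to 76.8) in knockout-GFP 2. It was 35.8% (31.7 to 40.1) in knockout-Acsl4 1 and 5.29% (4.74 to 5.90) in knockout-Acsl4 2. The group means were 71.4% ± 5.85 and 20.6% ± 21.6 (SD, n = 2 each). These groups did not overlap, and the two-sided exact permutation p was 0.33, the smallest that 2 against 2 libraries allow. In the control lists the share was 70.9% in control-GFP 1 and 21.7% in control-GFP 2. A low share was thus not particular to Ad-Acsl4, since control-GFP 2 fell between the knockout-Acsl4 libraries. The number of peaks had an exact permutation p of 1. Rictor and Foxo1 carried no peak in any of these 4 lists, and Acsl4 carried 6 inside the gene in knockout-GFP 1 and 0 in the other 3. The highest of the 6 scored 91.15. In control-GFP 1, Acsl4 carried 7 peaks, 1 of them at a gene end, with a highest score of 50.3, and in control-GFP 2 it carried 0. Foxo1 carried 1 peak in control-GFP 2, with a score of 2.40. Of the 8 beta cell markers examined, Mafa and Nkx6-1 had a gene-end peak in knockout-GFP 2, and none did in the other 3 lists, Ins1 and Ins2 included. The 5 alpha, 2 delta, 5 acinar, 3 endothelial, 3 stromal and 4 immune cell markers had none in any of the 4, and 1 of 4 ductal markers had one in knockout-GFP 2.

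In the lists as deposited, most regions shared by the knockout-GFP libraries had no peak in either knockout-Acsl4 library. At equal length they were no longer the majority, with 103 of 223. Of the 10866 regions, 1227 were called in both knockout-GFP lists only, which is 11.3% of all regions. The reverse pattern was found in 2 regions, or 0.0184%. A further 179 regions (1.65%) were shared with knockout-Acsl4 1 alone, 22 (0.202%) with knockout-Acsl4 2 alone, and 56 (0.515%) were called in all 4. These counts describe the regions as chosen and carry no test. At equal length the corresponding counts were 103 (6.49%), 1 (0.0631%), 76 (4.79%), 1 (0.0631%) and 43 (2.71%). Each peak has a score from the peak caller, read here as −log10 of a q-value. The last peak kept had a score of 6.54 in knockout-GFP 1 and 13.3 in knockout-GFP 2, and the first peak dropped scored 6.52 and 13.3. In knockout-Acsl4 2 the cut fell at 3.71, a value shared by 77 peaks, and knockout-Acsl4 1 was used whole down to 1.32.

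**Figure D1:**
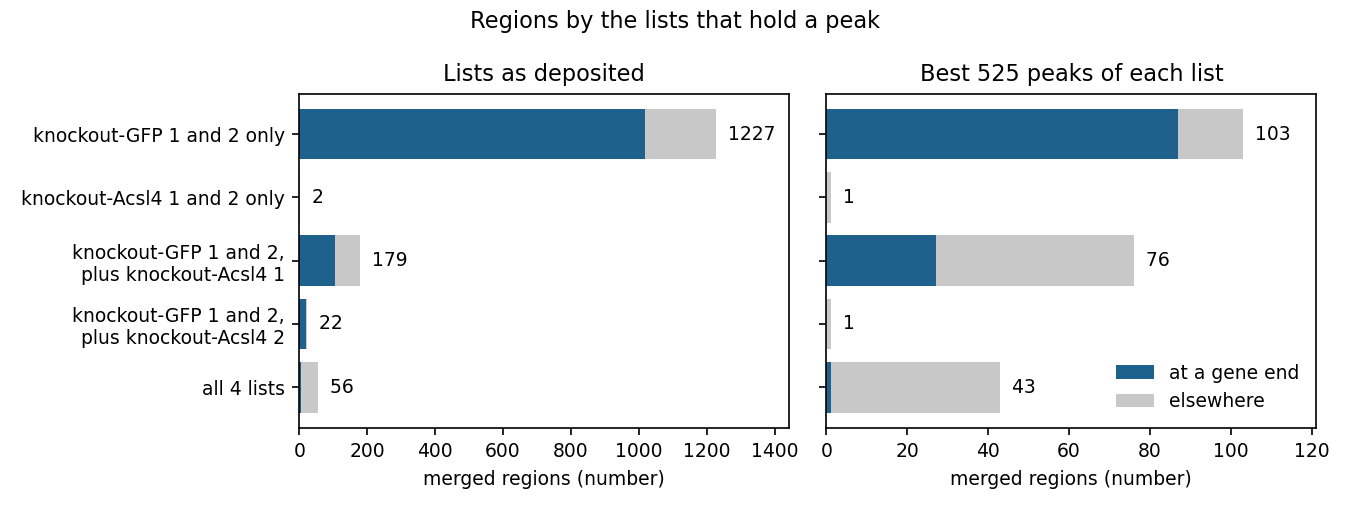
Number of merged regions (horizontal axis) by the lists that hold a peak (rows), for the lists as deposited on the left and cut to equal length on the right, with blue for regions at a gene end and grey for regions elsewhere. The 1227 and 103 regions of both knockout-GFP lists only are mostly at gene ends, whereas the regions of all 4 lists (56 and 43) are mostly elsewhere.

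Regions called in both knockout-GFP lists only lay mostly at the ends of genes. Of the 1227, 1018 (83.0%, 95% exact interval 80.7 to 85.0) lay at a gene end, 141 inside a gene body and 68 between genes. Among regions of knockout-GFP 2 alone, 1989 of 2640 lay at a gene end, and among those of knockout-GFP 1 alone 324 of 686. The share was 28.5% over all 9380 regions outside the patterns, of which 5738 were regions of knockout-Acsl4 2 alone with 4.46% at gene ends. A start site of a RefSeq promoter entry fell inside 708 of the 1227 (57.7%). The median width of the 1227 was 327 bp (quartiles 257 and 424). For the 906 of them that overlapped a promoter entry, the median midpoint lay 97 bp upstream of the start site (quartiles 160 upstream and 26 upstream). Scores of the 1227 were middling within the lists, with a median percentile of 57.0 in knockout-GFP 1 and 67.6 in knockout-GFP 2. A score percentile is the share of a list's peaks with an equal or lower score. Chromosome X held 4 of the 1227 and chromosome Y 1, against 319 and 27 of all 10866 regions. The knockout-GFP lists themselves had 21 of 2206 and 50 of 4257 peaks on X.

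Of the 2 libraries without the knockout, control-GFP 1 held most of these regions and control-GFP 2 did not. Control-GFP 1 had a peak in 999 of the 1227 (81.4%, 95% exact interval 79.1 to 83.6), with a median percentile of 70.9 there. Control-GFP 2 had a peak in 162 (13.2%, 11.4 to 15.2), and 220 (17.9%) were in neither. The intervals of the control libraries lay far apart on the same regions, although these libraries share genotype and virus.

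Of the 103 regions that were knockout-GFP-only at equal length, 99 had the same pattern in the lists as deposited, and the other 4 had a peak further down in knockout-Acsl4 2. Among the 99, 83 lay at gene ends, and 12 of these were chosen by the lower of their knockout-GFP percentiles. At the predicted gene Gm32584 (chromosome 5, 36661020 to 36661357) the score was 22.2 in knockout-GFP 1 and 24.6 in knockout-GFP 2. It is the only 1 of the 12 without a peak in either control list. At Zfp78 (chromosome 7, 6362470 to 6363107) the scores were 13.1 and 24.0, and both control lists also had a peak. At Ifrd1 (chromosome 12, 40223135 to 40223575) they were 13.1 and 19.5. All 3 ranked in the top 10% of both knockout-GFP lists, the ranks by which they were chosen. By the choice of class, they had no peak in either knockout-Acsl4 list.

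The aminopeptidase gene Dnpep scored 15.8 and 17.8 in the knockout-GFP lists, with the middle of its region 1 bp upstream of the start site. Qdpr, which recycles tetrahydrobiopterin, scored 12.3 and 34.2. The zinc finger genes Zbtb5 (11.9 and 21.9) and Sp1 (12.6 and 16.9) followed, and Sp1 encodes a factor that binds GC boxes. Both of these and Qdpr were also called in control-GFP 1. Kmt5c, a methyltransferase of histone H4, scored 10.6 and 16.7. Usp1, a deubiquitinase of DNA repair, scored 10.8 and 15.8. A region at Mylpf and Tbc1d10b (10.7 and 20.6) and a region between the oppositely transcribed Gmfg and Samd4b (10.5 and 25.5) were the last of those described, and 11 of the 12 were called in control-GFP 1 and 6 in control-GFP 2.

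**Figure D2:**
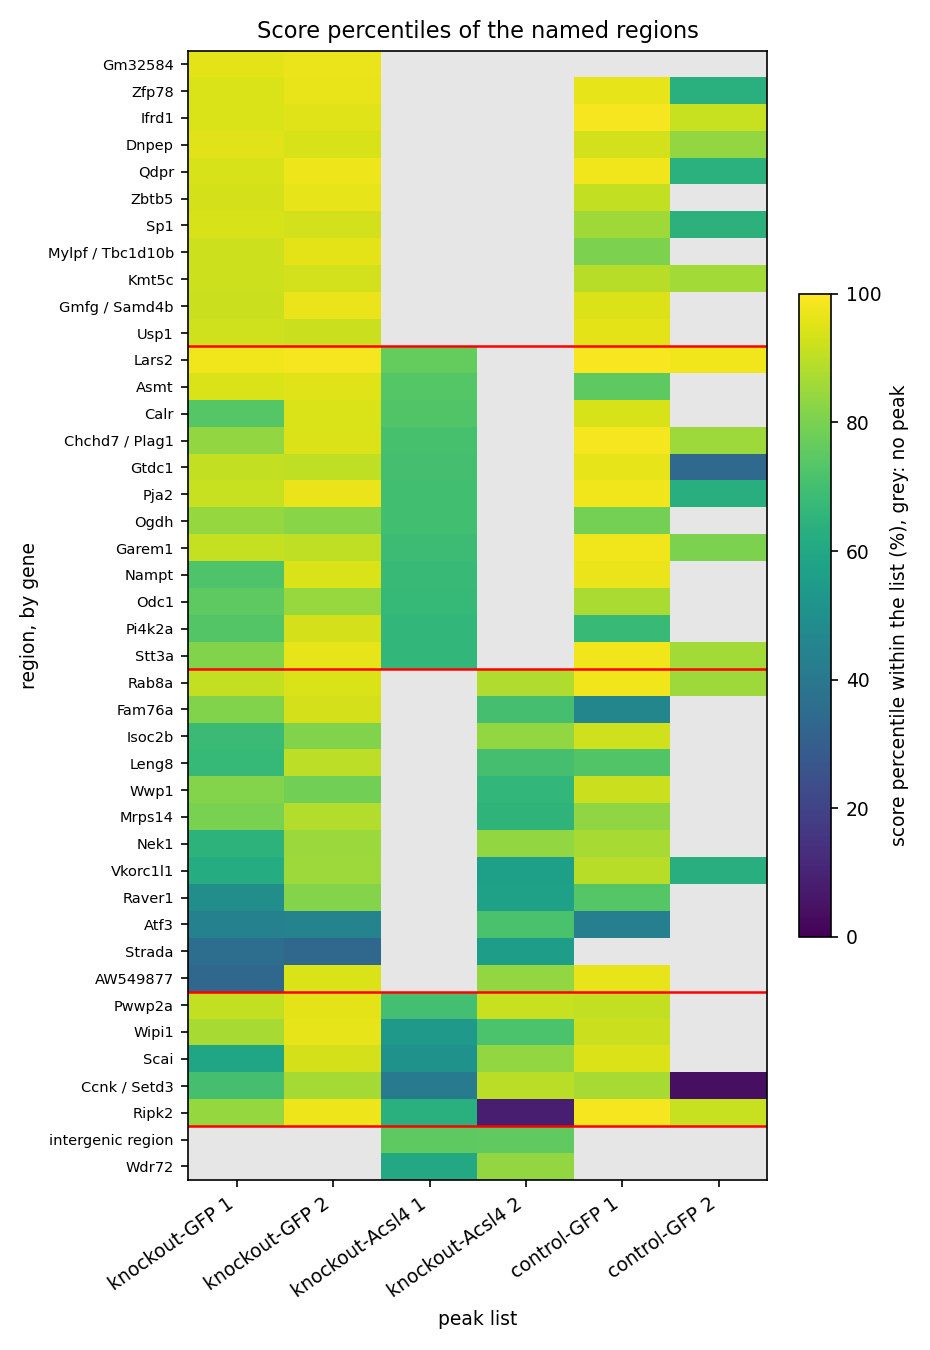
Score percentile within each list (colour, percent; grey, no peak) for the named regions (rows, by gene) in the 6 lists (columns), with red lines between the classes. From the top, the classes are both knockout-GFP lists only, plus knockout-Acsl4 1, plus knockout-Acsl4 2, all 4 lists, and both knockout-Acsl4 lists only. Most rows also have a peak in control-GFP 1.

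Of the 1227 regions, 209 lay away from gene ends, and these included very high scores. A region inside Zc3h7a (chromosome 16, 11143954 to 11144272) scored 53.1 in knockout-GFP 1 and 38.2 in knockout-GFP 2, and was named after its values were seen. It also had a peak in both control lists, at 29.6 and 24.95. The 209 had median percentiles of 54.8 and 59.7 in knockout-GFP 1 and 2, against 57.4 and 68.9 for the 1018 at gene ends.

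Regions also called in knockout-Acsl4 1 stood higher in the lists that took no part in telling the classes apart. All 179 regions are in both knockout-GFP lists, as are the 1227, so only knockout-Acsl4 1 separates them. Control-GFP 1 held 168 of the 179 (93.9%, 95% exact interval 89.3 to 96.9), against 81.4% of the knockout-GFP-only regions. The intervals did not overlap, but they cover counting over regions in 1 library, not the spread between libraries. Control-GFP 2 held 66 (36.9%, 29.8 to 44.4), against 13.2%. The median percentile in control-GFP 1 was 91.3 against 70.9, and in the knockout-GFP lists 78.6 and 90.3 against 57.0 and 67.6. The classes were also taken at equal length, with the control lists left whole. Control-GFP 1 then held 97.4% (90.8 to 99.7) against 96.1% (90.3 to 98.9), and these intervals overlapped. That whole list held 97.3% of all 223 regions shared by the cut knockout-GFP lists, and the cut control-GFP 1 list 72.2%. For the same 2 classes the whole control-GFP 2 list held 65.8% (54.0 to 76.3) against 28.2% (19.7 to 37.9). In the lists as deposited, 59.2% (51.6 to 66.5) of the 179 regions lay at gene ends, against 83.0% of the 1227. The peaks of knockout-Acsl4 1 in these regions had a median width of 136 bp, where knockout-GFP 1 and 2 had 256 and 317 bp. Over the whole lists the medians were 125, 205 and 214 bp, so narrow peaks were a trait of the knockout-Acsl4 1 list.

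In this class 12 gene-end regions were named by rule. The first was at Lars2, the mitochondrial leucyl-tRNA synthetase gene (chromosome 9, 123461890 to 123462168). It scored 72.4 and 90.7 in the knockout-GFP lists and 13.5 in knockout-Acsl4 1. This region overlapped no RefSeq promoter entry, so whether it lies at the start of the gene is not shown. Calr (chromosome 8, 84846907 to 84847221) scored 6.13 and 18.3, and 9.23 in knockout-Acsl4 1. Ogdh, a subunit of the 2-oxoglutarate dehydrogenase of the citric acid cycle, scored 7.96 and 11.4, and 7.59 in knockout-Acsl4 1. All 3 ranked above the median in knockout-GFP 1, knockout-GFP 2 and knockout-Acsl4 1, the ranks by which they were chosen.

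Nampt, the rate-limiting enzyme of NAD salvage, scored 6.03 and 18.2 in the knockout-GFP lists and 6.96 in knockout-Acsl4 1. Odc1, which makes putrescine for polyamines, scored 6.34 and 12.0, and 6.87 there. Pi4k2a, a phosphatidylinositol kinase, scored 6.10 and 17.1, and 6.56 there. Stt3a, a catalytic subunit of the oligosaccharyltransferase, scored 7.26 and 22.3, and 6.26 there. The ubiquitin ligase gene Pja2 (10.2, 26.1 and 7.75), Gtdc1 (9.94, 14.9 and 7.98), Garem1 (10.1, 14.8 and 7.28), the region shared by Chchd7 and Plag1 (7.90, 18.7 and 8.54) and Asmt (12.9, 19.5 and 11.1), in the order knockout-GFP 1, knockout-GFP 2 and knockout-Acsl4 1, made up the 12. The regions at Asmt, Garem1 and Chchd7 and Plag1 also overlapped no promoter entry. Each of the 12 was called in control-GFP 1. By the choice of class, none had a peak in knockout-Acsl4 2, the longest of the 4 lists.

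The 22 regions shared with knockout-Acsl4 2 alone also lay mostly at gene ends, 19 of them (86.4%, 95% exact interval 65.1 to 97.1). Their scores in knockout-Acsl4 2 had a median of 2.34, against 1.545 over that whole list, and a median percentile of 68.3. Their knockout-GFP scores had medians of 4.55 and 11.2, with median percentiles of 53.4 and 81.15. Rab8a (chromosome 8, 72160850 to 72161321) scored 9.94 and 18.4 in the knockout-GFP lists and 3.32 in knockout-Acsl4 2. Atf3, a stress-induced transcription factor (chromosome 1, 191183246 to 191183670), scored 3.93 and 5.80, and 2.49 in knockout-Acsl4 2. Mrps14, a protein of the mitochondrial ribosome, scored 7.04 and 13.6, and 2.17. Strada, a pseudokinase that activates LKB1, scored 3.45 and 4.81, and 1.55, and had no peak in either control list. The others of the 12 named were Fam76a, Isoc2b, Leng8, the ubiquitin ligase Wwp1, the kinase Nek1, Vkorc1l1, the splicing regulator Raver1 and AW549877, with scores of 1.63 to 2.66 in knockout-Acsl4 2. Control-GFP 1 held 18 of the 22 (81.8%, 59.7 to 94.8).

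Regions called in all 4 lists were mostly not promoters. Of 56, 44 lay between genes, 7 in gene bodies and 5 at gene ends, and 50 were called in all 6 libraries of the study. Their median percentile was above 90 in each of the 4 lists. Chromosome 9 held 15 of the 56, and at equal length several of these lay between 3000006 and 3038222. The highest score of each list was in a region between genes on chromosome 2 (98666248 to 98667327). It scored 10220 and 10560 in knockout-GFP 1 and 2, and 8675 and 2869 in knockout-Acsl4 1 and 2. Whether such regions are repeated sequence was not tested. The 5 at gene ends had moderate scores. Pwwp2a (chromosome 11, 43681714 to 43682071) scored 9.94, 21.1, 7.83 and 3.71 in knockout-GFP 1, knockout-GFP 2, knockout-Acsl4 1 and knockout-Acsl4 2. In the same order Wipi1 (chromosome 11, 109611449 to 109611918) scored 8.42, 22.2, 4.32 and 2.50. Scai, a suppressor of cancer cell invasion, scored 4.89, 17.2, 3.74 and 2.66. These 3 were also called in control-GFP 1 and not in control-GFP 2. Ripk2, an innate immune kinase, and the region between Ccnk, a cyclin of transcription kinases, and Setd3, an actin methyltransferase, were the other 2.

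The 2 regions called in both knockout-Acsl4 lists and in neither knockout-GFP list lay away from gene ends. The first was between genes on chromosome 3 (21613996 to 21614173) and scored 11.8 in knockout-Acsl4 1 and 2.54 in knockout-Acsl4 2. The other was inside Wdr72 (chromosome 9, 74184201 to 74184473) and scored 4.97 and 2.66. Neither had a peak in a control list. At equal length neither remained, since their scores in knockout-Acsl4 2 lay below the cut of 3.71 in that list. A different region then had the pattern, on chromosome 13 (74528979 to 74529430). Before the cut that region had a peak in all 6 lists. It scored 6.15 and 13.1 in the knockout-GFP lists, below their cuts of 6.54 and 13.3. In the knockout-Acsl4 lists it scored 6.62 and 4.79.

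Gene-end regions with higher knockout-GFP scores were found more often in knockout-Acsl4 1. The 1148 gene-end regions of both knockout-GFP lists were split into 10 groups by the lower of their percentiles in those lists. Knockout-Acsl4 1 held 5.22% (95% exact interval 1.94 to 11.0) of the weakest group and 22.6% (15.3 to 31.3) of the strongest. Control-GFP 2 held 6.09% (2.48 to 12.1) and 31.3% (23.0 to 40.6). Knockout-Acsl4 2 held 1.74% (0.211 to 6.14) and 5.22% (1.94 to 11.0). Control-GFP 1 held 65.2% (55.8 to 73.9) and 97.4% (92.6 to 99.5). Knockout-Acsl4 1 and control-GFP 2, which differ in genotype and virus, had intervals that overlapped in each of the 10 groups. Over all 1148 regions knockout-Acsl4 1 held fewer, 9.67% (8.02 to 11.5) against 14.4% (12.4 to 16.5) in control-GFP 2. Those intervals did not overlap, but each rests on 1 library, and both lists were read on the same regions. Knockout-Acsl4 2 held 2.09% (1.34 to 3.10) and control-GFP 1 83.0% (80.7 to 85.1).

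**Figure D3:**
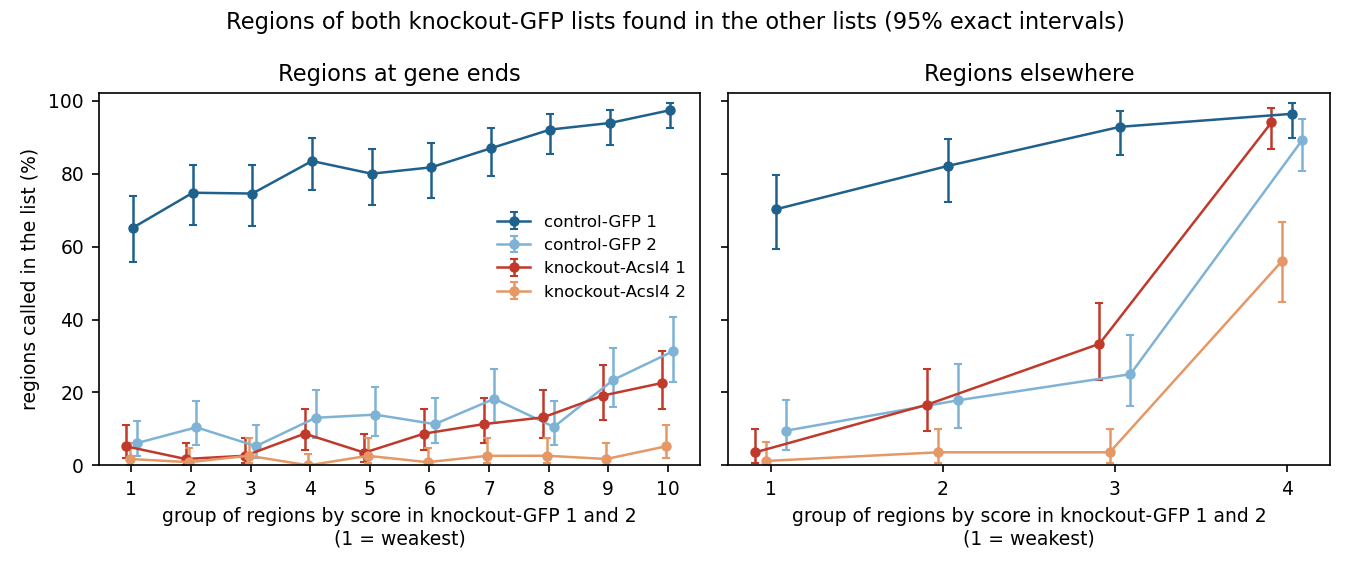
Share of regions called in both knockout-GFP lists that had a peak in each of the other 4 lists (vertical axis, percent, with 95% exact intervals), by groups of rising knockout-GFP score (horizontal axis, 1 is weakest), for 1148 gene-end regions on the left and 336 other regions on the right. In the strongest gene-end group the shares were 97.4% for control-GFP 1, 31.3% for control-GFP 2, 22.6% for knockout-Acsl4 1 and 5.22% for knockout-Acsl4 2.

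Away from gene ends the strongest regions were found in most lists. In the best 25% of the 336 such regions, knockout-Acsl4 1 held 94.0% (86.7 to 98.0), knockout-Acsl4 2 held 56.0% (44.7 to 66.8), control-GFP 1 96.4% and control-GFP 2 89.3%. This best 25% includes the chromosome 2 region and several of the chromosome 9 regions described above among those of all 4 lists. In the 25% below the best, knockout-Acsl4 1 held 33.3% and knockout-Acsl4 2 held 3.57%.

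At equal list length, control-GFP 1 again held the most of the shared gene-end regions and knockout-Acsl4 2 the fewest. The cut knockout-GFP lists shared 223 regions, 115 of them at gene ends. Of these 115, control-GFP 1 held 68 (59.1%, 95% exact interval 49.6 to 68.2), knockout-Acsl4 1 held 28 (24.3%, 16.8 to 33.2), control-GFP 2 held 22 (19.1%, 12.4 to 27.5) and knockout-Acsl4 2 held 1 (0.870%, 0.0220 to 4.75). For the 108 elsewhere the counts were 93, 91, 81 and 43 in the same order. The intervals of knockout-Acsl4 1 and control-GFP 2 overlapped here. The cut list of knockout-Acsl4 2 held 19 gene-end peaks, against 188 in knockout-Acsl4 1 and 343 and 351 in knockout-GFP 1 and 2. The part of read depth or library quality in these counts was not tested.

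Most peaks of knockout-Acsl4 1 were shared with the knockout-GFP lists and most of knockout-Acsl4 2 were not. Of the peaks of knockout-Acsl4 1, 251 (47.8%) overlapped a peak in both knockout-GFP lists, 97 in 1 of them and 177 in neither. Of the 5874 of knockout-Acsl4 2, 76 (1.29%) overlapped both and 5740 (97.7%) neither. Of the best 25% of knockout-Acsl4 1 peaks, 80.2% were in both knockout-GFP lists and 2 of 131 lay at a gene end. Of the next 25%, 55.0% were in both lists and 53.4% at gene ends. The same 4 groups of knockout-Acsl4 2 peaks had 3.68% to 6.88% of peaks at gene ends. The lower 3 of these groups meet at 1 tied score, 1.54, which all peaks of the third group have. The best 2 groups meet at a shared score of 2.54. Peaks tied at these borders have no order by score. Regions found in knockout-Acsl4 2 alone numbered 5738, and control-GFP 1 held 24 of them (0.418%).

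**Figure D4:**
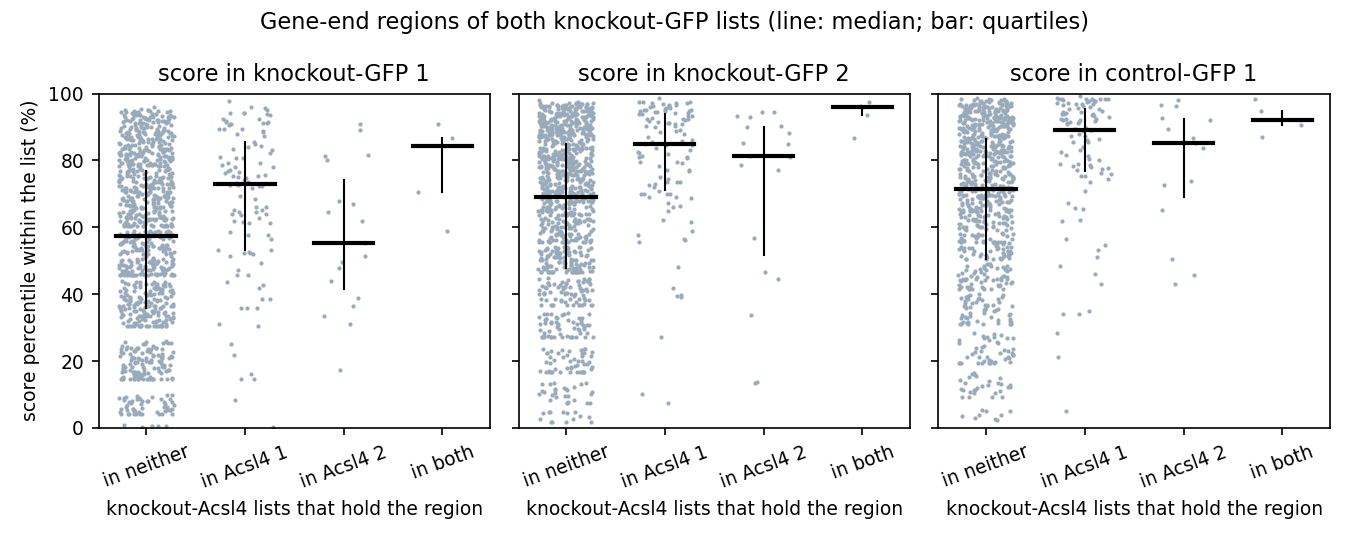
Score percentile within the list (vertical axis) of gene-end regions called in both knockout-GFP lists, grouped by the knockout-Acsl4 lists that hold them (horizontal axis), in knockout-GFP 1, knockout-GFP 2 and control-GFP 1 (points, regions; thick line, median; thin bar, quartiles). Regions in knockout-Acsl4 1 have higher medians than those in neither list, 72.9 against 57.4, 84.8 against 68.9 and 89.2 against 71.3.

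Promoters in the region classes had more GC and more CpG than promoter entries at large, as did promoters of regions called in 1 knockout-GFP list only (median 64.0% GC and 25 CpG). Each region was given the RefSeq promoter entry that it overlapped and whose start site lay nearest. This matched 906 of the 1227 knockout-GFP-only regions, 92 of the 179 shared with knockout-Acsl4 1, 14 of the 22 shared with knockout-Acsl4 2 and 4 of the 56 in all 4. The median GC content was 64.3%, 65.7%, 61.2% and 64.2% in these, against 56.3% over 21263 entries of protein-coding genes. The median number of CpG dinucleotides per 300 bases was 25, 27, 22.5 and 24.5, against 13. As background, promoters rich in CpG are typical of widely expressed genes.

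The 12 motifs searched on both strands were the CRE (TGACGTCA), NRF1 (CGCATGCG), ETS (CCGGAAG), YY1 (AANATGGCG), the CCAAT box (CCAAT), the GC box (GGGCGGG), the E-box (CACGTG), AP-1 (TGANTCA), FOXO (GTAAACA), the antioxidant response element (TGACNNNGC), the TATA box (TATAAA) and ZNF143 (CTACAATTC). A GC box was found in 67.5% (95% exact interval 64.4 to 70.6) of the promoters of knockout-GFP-only regions, in 71.7% (61.4 to 80.6) of those shared with knockout-Acsl4 1 and in 33.9% of all entries. A CCAAT box was found in 56.6% (53.3 to 59.9), 64.1% (53.5 to 73.9) and 38.2%. ETS matches were found in 19.2%, 14.1% and 11.6%, and NRF1 matches in 7.95%, 6.52% and 2.52%. A TATA box was less frequent, with 3.75%, 3.26% and 12.6%. FOXO matches were found in 2.32% (1.44 to 3.52), 2.17% (0.264 to 7.63) and 3.01%. The antioxidant response element was found in 14.5% (12.2 to 16.9), 21.7% (13.8 to 31.6) and 13.0%, and the E-box in 11.8%, 12.0% and 7.84%. The rarer motifs were the CRE (3.97%, 3.26% and 2.23%), YY1 (6.40%, 4.35% and 3.12%), AP-1 (2.98%, 4.35% and 6.99%) and ZNF143 (1.32%, 1.09% and 0.489%). Matches to different motifs may share bases, and each was counted. For all 12 motifs the intervals of the knockout-GFP-only and the shared promoters overlapped. A match is a description of letters, and binding was not measured.

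**Figure D5:**
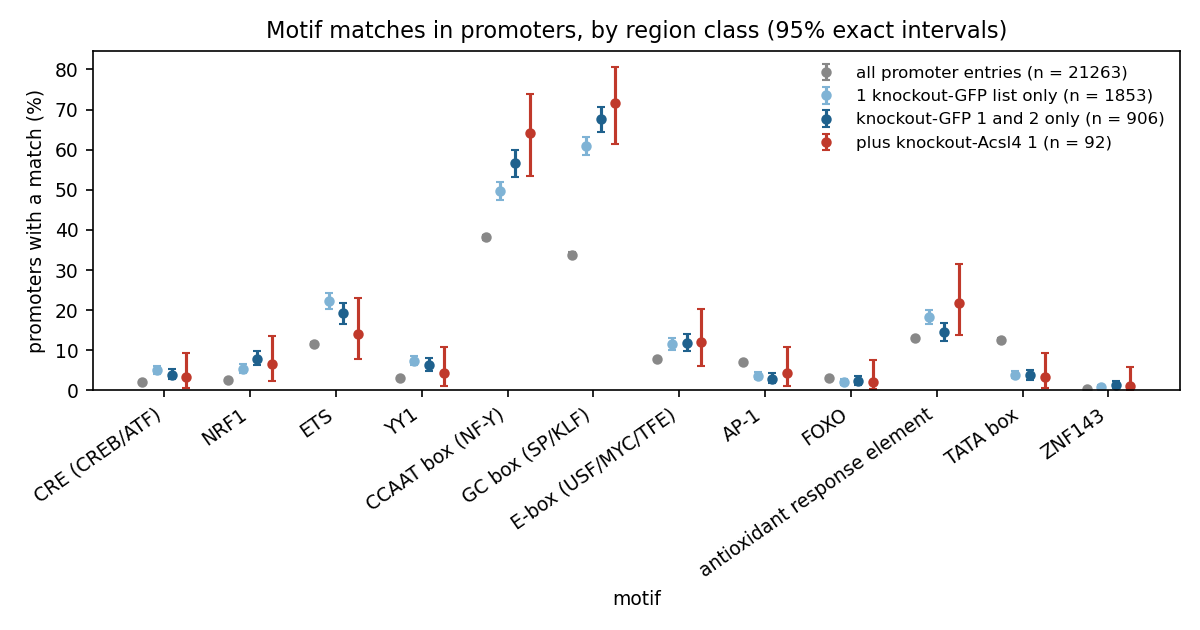
Share of promoters with at least 1 match (vertical axis, percent, with 95% exact intervals) for each motif (horizontal axis), in all 21263 promoter entries (grey), regions of 1 knockout-GFP list only (light blue), both knockout-GFP lists only (dark blue) and these plus knockout-Acsl4 1 (red). The GC box and the CCAAT box are found more often in all 3 region classes than in all entries, and the dark blue and red intervals overlap for each motif.

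At the level of genes, 1262 of 21887 protein-coding genes (5.77%) had a knockout-GFP-only region at an end, 125 (0.571%) a region shared with knockout-Acsl4 1, 21 (0.0959%) a region shared with knockout-Acsl4 2 and 6 (0.0274%) a region in all 4. No gene (0.0%) had a knockout-Acsl4-only region at an end. Of the 1414 genes with a region in both knockout-GFP lists, 152 (10.7%) were called in a knockout-Acsl4 list. The gene lists that follow were written with earlier results of these data known, and their counts are set beside these shares without a test.

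The ER stress response, the program that adds chaperones and slows translation when misfolded proteins build up, had 9 of 20 members with a region in both knockout-GFP lists, against 1414 of all 21887 genes. Of these, 7 were knockout-GFP-only (35% of the list, against 5.77% of all genes), Calr was shared with knockout-Acsl4 1 and Atf3 with knockout-Acsl4 2. The 2 of 9 called in a knockout-Acsl4 list are 22.2%, against 10.7% over all genes. Eif2ak3, which encodes the stress kinase PERK, scored 8.41 and 20.9 in the knockout-GFP lists and 21.0 in control-GFP 1. Hsp90b1, an ER chaperone, scored 7.99 and 14.5, and 8.42 in control-GFP 1. Sel1l, part of the ubiquitin ligase of ER-associated degradation, scored 8.63 and 12.9, and 38.1 in control-GFP 1. Ddit3, a transcription factor of the late stress response, scored 5.92 and 18.95, and 10.8 in control-GFP 1. Dnajb9, a co-chaperone of BiP, scored 3.25 and 9.38, and 14.1 in control-GFP 1. All 5 are among the 7 knockout-GFP-only genes, so by the choice of class none had a peak in a knockout-Acsl4 list.

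FOXO targets had 3 of 20 members with such a region, all knockout-GFP-only. Sesn3, which restrains mTORC1, scored 4.63 and 16.6, Sod2, the mitochondrial superoxide dismutase, 4.13 and 9.38, and Irs2, the insulin receptor substrate, 1.93 and 4.36. The antioxidant list had Sod2 and the mitochondrial thioredoxin gene Txn2 (10.3 and 3.6) among 20 members. The mTORC2, AKT and FOXO pathway had the kinase gene Gsk3b (2.70 and 16.3) and Irs2 among 24. Each of these 5 genes was also called in control-GFP 1, and none in a knockout-Acsl4 list. Knockout-GFP-only members were 15% of the FOXO targets, 10% of the antioxidant list and 8.33% of the pathway list, against 5.77% of all genes. These rest on 3, 2 and 2 genes.

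Fatty acid and phospholipid metabolism, the list to which Acsl4 belongs, had 4 of 22 members with a region in both knockout-GFP lists, and 13.6% of the list was knockout-GFP-only, against 5.77% of all genes. Agpat1, which makes phosphatidic acid, was shared with knockout-Acsl4 1, with scores of 4.48, 15.7 and 1.77 in knockout-GFP 1, knockout-GFP 2 and knockout-Acsl4 1. Knockout-GFP-only were Lpcat3, which puts polyunsaturated acyl chains into phospholipids (6.82 and 9.31), Acadm, a dehydrogenase of beta-oxidation (5.77 and 5.59), and Acsl3, a relative of Acsl4 (1.97 and 4.0). Acsl3 had no peak in either control list. Among immediate early genes, Klf6 was knockout-GFP-only (7.25 and 12.3). Among housekeeping genes the same pattern was found for Ppia (6.15 and 6.50), Polr2a (3.27 and 4.84), Vps29 (3.71 and 3.73) and Rplp0 (2.35 and 5.44), 4 of 20. That is 20% of the housekeeping list, a higher share than in the FOXO, antioxidant and mTORC2 pathway lists, against 5.77% of all genes.

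No member was found among 20 genes of beta cell identity, 15 that mark dedifferentiated beta cells or are normally kept off in them, 12 of the remaining endocrine cells, 12 of the exocrine pancreas, 14 of vessels, stroma and immune cells, and 20 that are silent in islets, when a region in both knockout-GFP lists was asked for. A loss with Acsl4 at these genes could therefore not be read from the patterns, and a gain in both knockout-Acsl4 lists was found at no gene end.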

How the data were processed

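Per the labels' protocols, nuclei from 50 islets were tagmented with Tn5, amplified for 12 PCR cycles and sequenced as 50 bp paired reads. The submitters' processing notes list MACS2 2.1.1 and BWA 0.7.10 beside Trimmomatic, SAMtools and FastQC. Their settings are not given in the sources used here. The builds listed there, hg38 and GRCh38, are human, whereas the chromosomes in the peak lists are those of the mouse. Coordinates were read as GRCm38, and gene positions come from RefSeq GRCm38.p6. The deposited score of each peak is read as a −log10 q-value. This is an inference from its values, whose smallest lie just above 1.30, and no header or label states it. Peaks were deposited per library. Read depth was not analysed here, and scores are compared within a list by percentile.

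Peaks were merged with Python 3.11.15, and exact Clopper-Pearson 95% intervals came from SciPy 1.17.1. Exact permutation tests over libraries were coded with NumPy 2.4.6. The code was tested on simulated data. Intervals cover counting error over peaks or regions only, not the spread between libraries. Named gene-end regions were up to 12 per class, ordered by the lowest score percentile among the lists that define the class. They lie at either end of a gene, and not all overlapped a promoter entry. Knockout-GFP-only regions also had to keep their pattern at equal length. Of these 12, 1 is not reported here. Members of the gene lists were named up to 6 per list by mean knockout-GFP percentile, and Atf3 was named by its class. Promoters printed were the first 2 of each class with a RefSeq promoter entry. The members and lists were chosen with earlier results of these data known. Alternatives were lists cut to equal length or to the better 50%, overlap by 50% of the shorter peak, autosomes only, gene-end regions only, leaving out regions called in all 6 libraries, a 3000 bp window, covered length and leaving out each library. Same-numbered libraries had deviations that correlated at −0.32 over 10866 regions, with 2 pairs.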

Additional observations from a re-analysis of the deposited data

How the results depend on the processing

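The knockout-GFP-only count of 1227 regions was 103 with all lists cut to the length of the shortest (equal length) and 611 with the better 50%, and leaving out 1 library gave 1249 to 3878, with 3878 without knockout-GFP 1 and 1930 without knockout-GFP 2. The 2 knockout-Acsl4-only regions became 1 at equal length and 0 at gene ends, and leaving out 1 library gave 3 to 5740, with 5740 without knockout-Acsl4 1, 177 without knockout-Acsl4 2 and 5 without knockout-GFP 2. The 235 regions shared with knockout-Acsl4 1 became 119 at equal length, 148 with the better 50% and 111 at gene ends. The 78 shared with knockout-Acsl4 2 became 44 at equal length, 24 at gene ends and 28 without regions called in all 6 libraries. At equal length, the single knockout-Acsl4-only region became 0 at gene ends and 0 without regions called in all 6 libraries. The 119 became 28 and 71, and the 44 became 1 and 2, under the same restrictions. The difference in peak number, knockout-Acsl4 minus knockout-GFP, was −32, and reversed to 73.5 kb by covered length. It ranged from −2706.5 to 2642.5 on leaving out 1 library, and was above 0 without knockout-GFP 2 (993.5) and without knockout-Acsl4 1 (2642.5). The gene-end difference of −50.8 percentage points ranged from −66.1 to −35.6. With the replicate number as a block, the counts of 1227 and 2 were unchanged by construction, since the pattern asks for all 4 lists, and the exact sign-flip p for the gene-end difference was 0.5, the smallest 2 pairs allow. The crossed pairing also gave 1227 and 2. With 2 libraries per group and an Acsl4 group whose libraries differ this much, virus and library cannot be told apart. Other alternatives kept their direction and stayed within 1.5 times.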
